A study of Mus musculus with 20 samples.

Results

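Rapamycin was compared with vehicle in the hearts of mice that lack Acsl1, the enzyme that joins long-chain fatty acids to coenzyme A before cardiac mitochondria oxidize them. The comparison took the 5 libraries titled Acsl1H-/-_Rapamycin and the 5 titled Acsl1H-/-_Vehicle, 10 of the 20 libraries of the series. It covered 13548 of 21705 listed genes, those with a value of at least 10 in at least 5 of the 20 libraries. All mice were C57Bl/J6 males. Tamoxifen was given i.p. to both genotypes at 6 to 8 weeks of age, at 75 mg/kg on 4 days. Rapamycin at 1 mg/kg, or its vehicle, followed as a daily i.p. injection over 2 weeks, and ventricles were collected 2 weeks after tamoxifen. The other 10 libraries came from littermates with the floxed allele intact (Acsl1flox/flox, called control), 5 with rapamycin and 5 with vehicle. The Cre line that removes Acsl1 in the hearts called knockout here is not named in the labels, and an effect of that Cre cannot be told apart from the loss of the gene. The design text gives 5 biological replicates per condition.

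Rapamycin binds the immunophilin FKBP12, and the complex inhibits mTORC1, the kinase complex that couples amino acid and growth factor supply to ribosome production, translation, lipid synthesis and mitochondrial gene expression, and that restrains autophagy. A heart without Acsl1 burns less fatty acid and more glucose, and mTOR activity is known to be raised in such hearts. The comparison asks which transcripts of these hearts differ when rapamycin is given to the whole animal. Direct and indirect effects of the drug cannot be told apart. Kinase activity itself was not measured, and mTOR acts in large part on translation and protein activity, which transcript levels do not show.

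The transcript difference between the 2 groups was small. With limma and Benjamini-Hochberg adjustment over all genes, 1 gene passed the adjusted threshold of 0.05, Pdhx, which fell. That is 0.00738% of the genes tested as lower and 0% as higher. In all, 463 genes were lower at an unadjusted p under 0.05, a share of 3.42%, and 311 were higher, a share of 2.3%. The groups did not overlap for 166 genes that were lower under rapamycin, a share of 1.23%, and for 84 that were higher, a share of 0.62%. The median log2 difference over all genes was -0.016, and the central 95% of genes lay between -0.61 and 0.44. The median standard error of a gene's difference was 0.19 on the log2 scale. After quantile normalization 48.9% of the genes at an unadjusted p under 0.05 were lower, against 59.8% with the values as deposited.

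Values are expression estimates scaled by the authors to an upper quartile of about 1000 per library, so they are relative levels within a library. In a piece of ventricle, fewer cells of a type and less RNA per cell cannot be told apart. The implied depth was 15.6 ± 3.19 M reads in the vehicle and 16.4 ± 2.59 M in the rapamycin libraries (mean ± SD, n = 5 each; exact permutation test, two-sided, p = 0.714). Each of the 4 sequencing pools held libraries of both groups. On the principal components of the 10 knockout libraries, vehicle library 5 and rapamycin library 4 scored highest on the first (39.6 and 42.6), and vehicle library 3 lowest on the second (-55.5). Vehicle library 5 and rapamycin library 4 also had the lowest level of long transcripts relative to short ones, scoring -0.47 and -0.21, while the remaining 8 scored -0.01 to 0.62. The mean of this score did not separate the groups (0.22 and 0.16; exact permutation test, two-sided, p = 0.825). Of the 10 ventricular markers, 9 were tested. The summed level of all 10 ran from 384230 to 733008 under vehicle and from 421951 to 651213 under rapamycin. Atrial and conduction markers varied widely within both groups, with sums of 11242 to 77511 under vehicle and 16023 to 73414 under rapamycin. In control hearts the sums ran from 8135 to 10987 with vehicle and from 10103 to 43264 with rapamycin. With the mean atrial level as a covariate, 0 genes passed in limma and 763 had an unadjusted p under 0.05.

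The deleted gene checked the labels. Acsl1 (Entrez 14081) was at 996, 1402, 1467, 1682 and 740.5 in the vehicle libraries and at 1052, 1949.8, 948, 631 and 1539 in the rapamycin libraries. Control means were 10084 with vehicle and 12639 with rapamycin, so every knockout library carried its genotype. Rapamycin made no difference that could be detected at this spread (log2 difference -0.09, SE 0.28, adjusted p = 1). Esr1 was at 52658 ± 9701 under vehicle and 45325 ± 3949 under rapamycin (log2 difference -0.20, SE 0.21), against 148 and 182 in control hearts. A1cf was at 27.8 ± 9.1 and 20.3 ± 14.1 (log2 difference -0.66, SE 0.44) and was listed at 0 in the control hearts. For both genes, a transgene could add reads that the values do not separate from those of the mouse gene.

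Pdhx (Entrez 27402) encodes the E3-binding protein, a structural subunit that holds dihydrolipoamide dehydrogenase in the pyruvate dehydrogenase complex, through which pyruvate enters the citric acid cycle. Its values were 4476, 4914, 4869, 3964 and 3514 under vehicle and 2832, 2763, 2890.03, 2381 and 3156 under rapamycin. Every rapamycin library lay below every vehicle library. The mean went from 4347 ± 602 to 2804 ± 279 (mean ± SD, n = 5 each), and the log2 difference was -0.63 (SE 0.10, adjusted p = 0.0467). Within the 4 pools the difference was -0.70, -0.79, -0.52 and -0.53. Pool values here and below rest on very few libraries of each group and carry no measure of spread. In control hearts Pdhx was at 3544 ± 125 with vehicle and 2939.6 ± 205 with rapamycin (log2 difference -0.27), and the 2 responses differed by -0.35 (SE 0.14, adjusted p = 0.523). The adjusted p in knockout hearts sat just under the threshold and was not stable: leaving out each of the 20 libraries in turn gave 0.00599 to 0.271, and Pdhx passed in 3 of those 20 fits. The next gene had an adjusted p of 0.151.

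The 20 leading genes are the 10 lower and the 10 higher genes with the smallest p-values among those with a mean of at least 100 and no overlap between the groups. They were ranked on this comparison, so their values are a description, and apart from Pdhx they did not pass the adjusted threshold (adjusted p between 0.151 and 0.176). Among the lower ones, Abat, the mitochondrial transaminase that breaks down GABA, was at 789, 805, 742, 578 and 405 under vehicle and at 237, 296, 175, 113 and 348 under rapamycin (log2 difference -1.56, SE 0.29). The lowest vehicle library, 5, was the one closest to the rapamycin group. Timm44, which tethers the import motor of the inner mitochondrial membrane, was at 2138, 2540.04, 2197, 2290.3 and 1855 under vehicle and at 1581, 1432, 1385, 1345 and 1800.0 under rapamycin (log2 difference -0.55, SE 0.10). The gap between the groups was narrow here, since rapamycin library 5 reached almost to vehicle library 5. Mrps9, a protein of the small mitochondrial ribosomal subunit, was at 1938 ± 127 and 1480.3 ± 134 (log2 difference -0.39). Fdxr, the ferredoxin reductase that supplies electrons in mitochondria, was at 215 ± 26.8 and 142 ± 27.4 (log2 difference -0.61).

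The other 5 lower genes have varied roles. Dmpk, the myotonic dystrophy protein kinase of muscle, was at 10632 ± 717 and 8156 ± 469 (log2 difference -0.38). Cyp51, the lanosterol demethylase of cholesterol synthesis, was at 444 ± 24.8 and 323 ± 23 (log2 difference -0.46). Anapc16, a subunit of the anaphase-promoting complex, had a log2 difference of -0.51, the centrosome protein gene Fgfr1op -0.44 and the RNA-binding protein gene Raver2 -0.64.

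Among the higher genes, Nr4a3, an immediate early nuclear receptor, was at 58.4, 52.8, 35.8, 20.2 and 76.1 under vehicle and at 211, 273, 115, 167 and 632 under rapamycin (log2 difference 2.37, SE 0.54). Rapamycin library 5 held by far the highest value of this gene. Retnla, a secreted product of alternatively activated macrophages, was at 123, 82.0, 69.6, 144 and 81.3 under vehicle and at 227, 681, 294, 208 and 199 under rapamycin (log2 difference 1.56, SE 0.33). Mxi1, the MYC antagonist of the MAD family, was at 1299 ± 116 and 1725 ± 131 (log2 difference 0.41).

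Fkbp10, an endoplasmic reticulum prolyl isomerase that helps collagen fold, was at 743 ± 209 and 1235 ± 154 (log2 difference 0.77), and Leprel4, another endoplasmic reticulum protein of collagen modification, at 832 ± 137 and 1178 ± 76.6 (log2 difference 0.51). Cacna1s, the skeletal muscle L-type calcium channel subunit, was at 331 ± 57.6 and 493 ± 32.7 (log2 difference 0.59), and Tmem66, a regulator of store-operated calcium entry, at 7564 ± 644 and 9806 ± 451 (log2 difference 0.38). Peg13, an imprinted noncoding RNA, had a log2 difference of 0.52, and E130201H02Rik one of 0.56. Peg13 lies within the gene Trappc9, and the strand setting of the counting is not stated, so reads of the pair may not be fully separated.

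**Figure D1:**
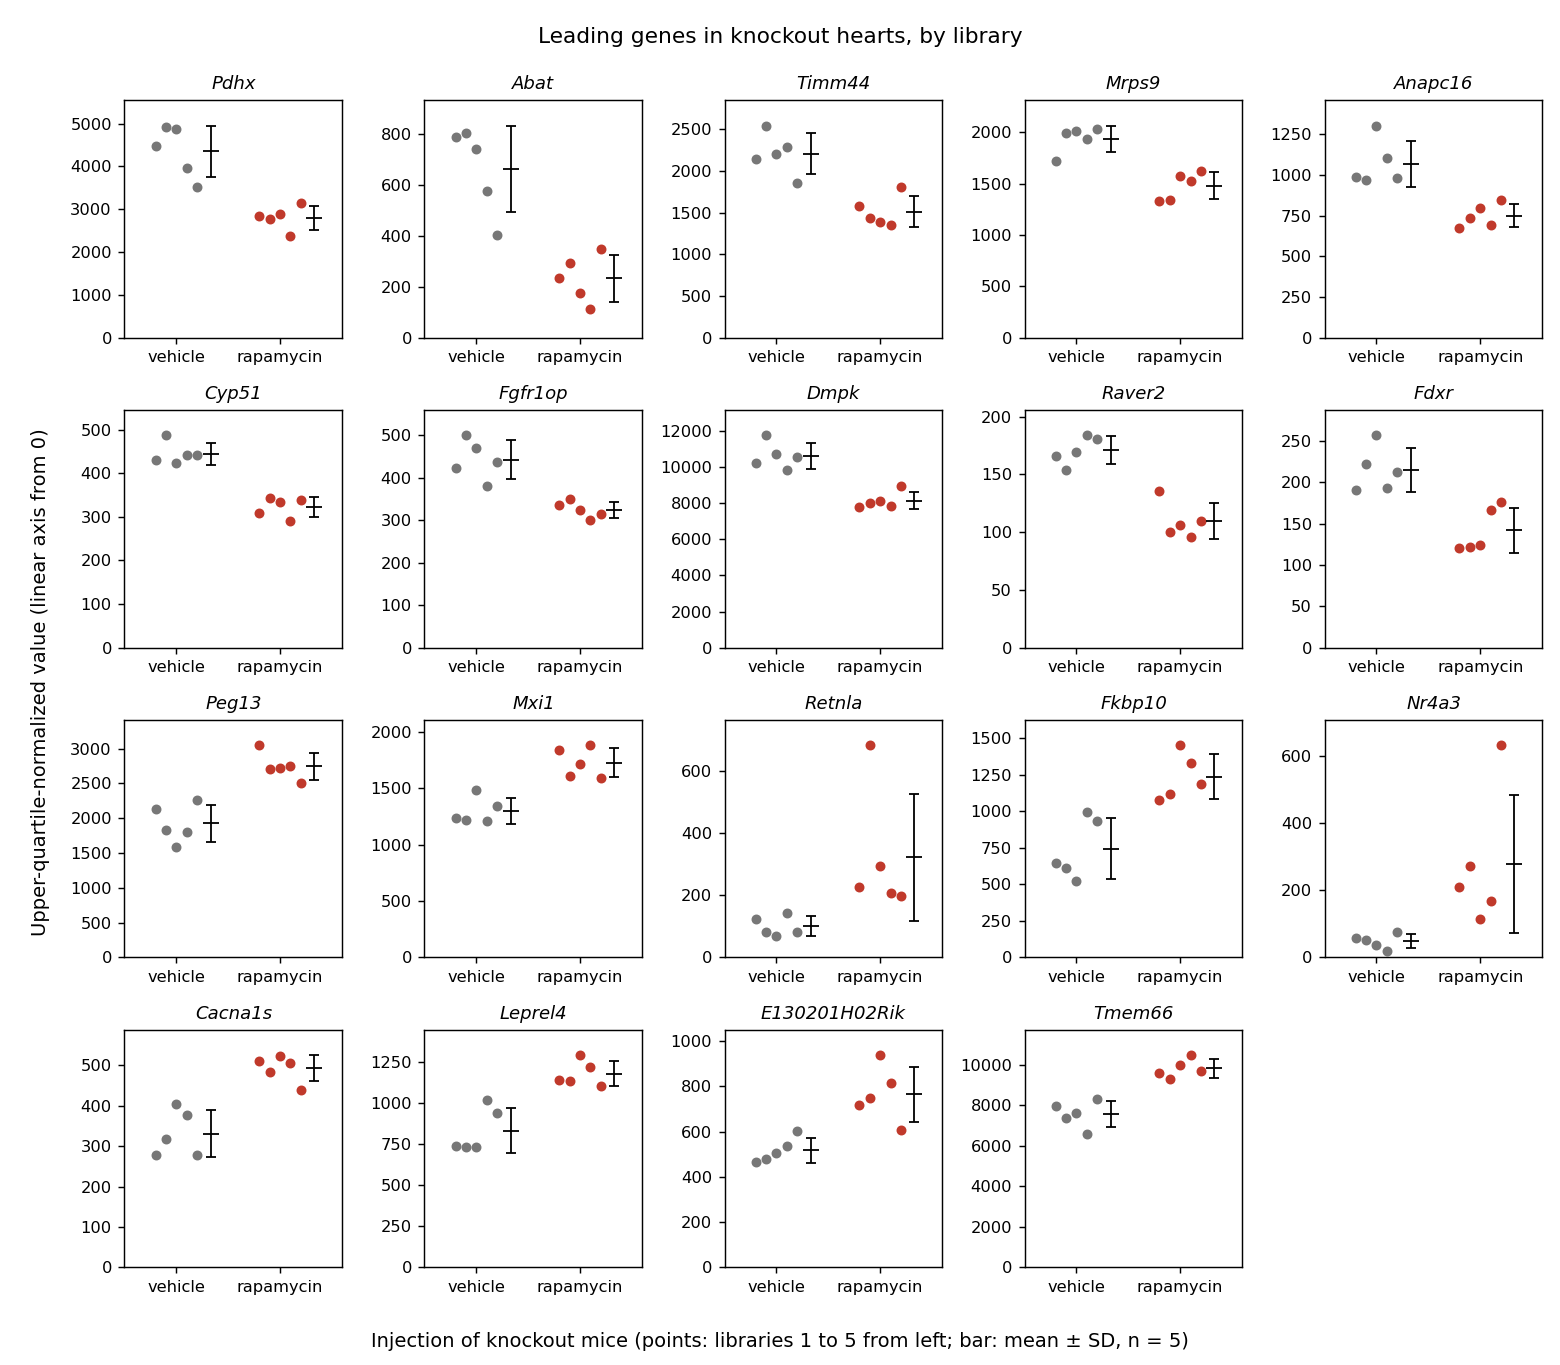
Upper-quartile-normalized value (y axis, linear from 0) of 19 of the 20 leading genes in each knockout library, vehicle in grey and rapamycin in red; points stand for libraries 1 to 5 from left to right, and the bar for the mean ± SD of 5 libraries. The upper 2 rows hold the lower genes, led by Pdhx (4347 to 2804), and the lower 2 rows the higher ones; the genes were chosen for having no overlap, Retnla and Nr4a3 show 1 rapamycin library far above the others, and only Pdhx passed the adjusted threshold.

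Fuel genes were described by lists. List counts at an unadjusted p under 0.05, here and below, compare with 3.42% of all genes lower and 2.3% higher. Those without overlap compare with 1.23% lower and 0.62% higher. Of 23 genes of branched-chain amino acid and ketone breakdown, 19 lay lower and 4 higher, with a median log2 difference of -0.29 against -0.016 over all genes. None passed the adjusted threshold, while 10 were lower and 1 higher at an unadjusted p under 0.05. Bdh1, which interconverts the ketone bodies acetoacetate and hydroxybutyrate, was at 5516, 5506, 4682, 1645 and 3877 under vehicle and at 809.9, 803, 1895, 821 and 1991 under rapamycin. The groups overlapped through vehicle library 4 alone. The log2 difference was -1.76 (SE 0.34, adjusted p = 0.151), with -2.78, -2.76 and -1.17 in pools 1 to 3 and -0.36 in pool 4, which holds that library. Without vehicle library 4, Bdh1 passed the threshold (adjusted p = 0.0272), as did Pdhx. Control hearts showed a difference of -1.41 for Bdh1. Hibch, of valine breakdown, was at 2128 ± 239 and 1549.6 ± 119.8 (log2 difference -0.45, adjusted p = 0.159) without overlap.

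Of 30 pyruvate dehydrogenase and citric acid cycle genes, Pdhx passed and 22 lay lower, with a median of -0.08; 6 were lower at an unadjusted p under 0.05. Besides Pdhx they included Pdhb, the E1 beta subunit, at 16838 ± 796 and 13912 ± 1107 (log2 difference -0.28), and Dlst, of the oxoglutarate dehydrogenase complex, at 20919 ± 1547 and 17253 ± 1160 (log2 difference -0.28), each without overlap. No fatty acid oxidation gene had an unadjusted p under 0.05, and the median over 21 genes was 0.01 (range -0.21 to 0.18).

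Of 15 genes of fatty acid uptake and binding, 2 were higher at an unadjusted p under 0.05, both without overlap, and the median was 0.03. They were Cd36, the fatty acid translocase, at 68284 ± 3624 and 85947 ± 8365 (log2 difference 0.33, adjusted p = 0.414), and Slc27a1, a fatty acid transport protein, at 2511 ± 446 and 3679.9 ± 288 (log2 difference 0.57, adjusted p = 0.462). The 23 PPAR target genes had a median of 0.05, with 3 higher at an unadjusted p under 0.05, among them Cd36 and Acot1, an acyl-CoA thioesterase, at 1041 ± 515 and 1800.1 ± 383 (log2 difference 0.88).

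Of the SREBP-controlled lists, fatty acid synthesis (20 genes) had a median of 0.03 and cholesterol synthesis (23 genes) one of -0.04. Scd4, a stearoyl-CoA desaturase, was at 502, 369.7, 107, 533 and 330.3 under vehicle and at 1261, 1116, 880.4, 1289 and 563 under rapamycin (log2 difference 1.6, SE 0.40, adjusted p = 0.201). The lowest rapamycin library lay just above the highest vehicle library. In the cholesterol list 4 genes were lower and none higher at an unadjusted p under 0.05, among them Cyp51, Pmvk, a mevalonate pathway kinase (log2 difference -0.33, without overlap), and Insig1, which retains SREBP in the endoplasmic reticulum (log2 difference -0.40). Srebf1 and Srebf2, the SREBP genes, had log2 differences of 0.09 each.

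**Figure D2:**
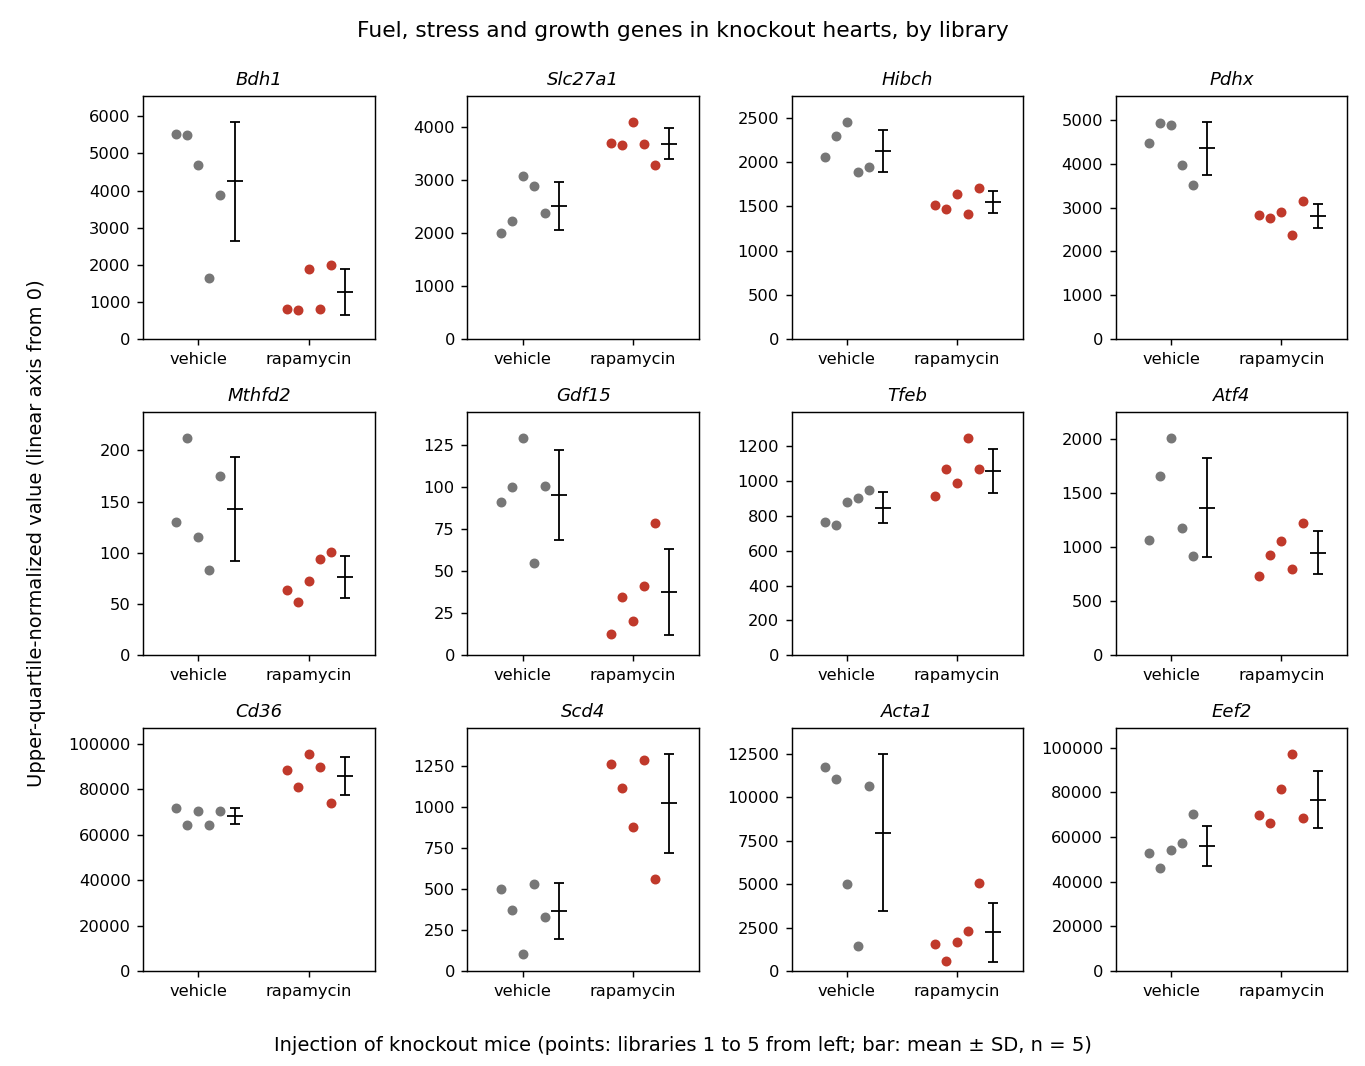
Upper-quartile-normalized value (y axis, linear from 0) of 12 fuel, stress and growth genes in each knockout library, vehicle in grey and rapamycin in red; points stand for libraries 1 to 5 from left to right, and the bar for the mean ± SD of 5 libraries. Bdh1, Mthfd2 and Gdf15 overlap through vehicle library 4 alone, Acta1, Tfeb, Atf4 and Eef2 overlap as well, and Slc27a1, Hibch, Pdhx, Cd36 and Scd4 do not overlap.

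The mTOR pathway itself showed little difference. Of 11 genes of the mTOR complexes, none passed, 1 had an unadjusted p under 0.05 and the median was -0.05. Mtor was at 1818 ± 355 and 1744 ± 267 (log2 difference -0.05, SE 0.25), Rptor, the mTORC1 scaffold, had a log2 difference of -0.08 and Rictor, its mTORC2 counterpart, one of -0.00. Telo2, a chaperone cofactor of such kinases, was at 307 ± 26.7 and 246 ± 27.8 (log2 difference -0.32). Fkbp1a, which encodes the rapamycin-binding FKBP12, had a log2 difference of 0.21 (SE 0.17). Of 27 upstream regulators, Sesn3, a sestrin that restrains mTORC1, was at 167 ± 7.46 and 118 ± 27.2 without overlap (log2 difference -0.52, adjusted p = 0.462). Rheb and Tsc2, the activating GTPase and the inhibitor of that GTPase, had log2 differences of 0.08 and 0.13.

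Of 23 mTORC1 effectors, 14 lay higher and the median was 0.06. Tfeb, the lysosomal transcription factor that mTORC1 keeps out of the nucleus, was at 847 ± 89.2 and 1056 ± 125 (log2 difference 0.32, adjusted p = 0.462). Eif4ebp1, the translation repressor that mTORC1 phosphorylates, had a log2 difference of 0.28 (SE 0.18) and the kinase gene Rps6kb1 one of -0.23 (SE 0.20). The 40 lysosomal genes had a median of 0.08 and the 40 autophagy and mitophagy genes one of 0.02, with 1 gene in each direction at an unadjusted p under 0.05 in either list. Pink1, the kinase that starts mitophagy, was at 23034 ± 2045 and 27147 ± 2057 (log2 difference 0.24).

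ATF4, which mTORC1 also stimulates, drives amino acid and one-carbon synthesis. Atf4 was at 1368 ± 455 and 950.1 ± 198 (log2 difference -0.49, SE 0.22, adjusted p = 0.825). Of 15 serine, glycine and folate synthesis genes 12 lay lower, with a median of -0.22, which was -0.10 over the genes with a mean of at least 100. Mthfd2, a mitochondrial folate enzyme and ATF4 target, was at 130.2, 212, 115, 83.5 and 175 under vehicle and at 63.4, 51.6, 72.2, 94.5 and 101 under rapamycin. The groups overlapped through vehicle library 4. The log2 difference was -0.86 (SE 0.27, adjusted p = 0.413), with -1.32, -1.73 and -0.97 in pools 1 to 3 and 0.22 in pool 4. Phgdh, Psat1 and Shmt2, which make serine and glycine, had log2 differences of -0.01, 0.17 and -0.03.

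The 22 ATF4 stress targets had a median of -0.06 and went both ways. Gdf15, a secreted stress hormone, was at 91.3, 100.03, 129, 54.7 and 100.3 under vehicle and at 12.4, 34.4, 20.6, 41.2 and 78.4 under rapamycin (log2 difference -1.53, SE 0.45, adjusted p = 0.404). The groups overlapped only because vehicle library 4 lay below rapamycin library 5. Ddit3, the pro-apoptotic factor CHOP, had a log2 difference of -0.33, and Slc7a11, the cystine importer, one of 0.62. Asns, Chac1 and Trib3 had log2 differences of -0.16, 0.23 and -0.01.

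Of the genes for protein synthesis, 78 of 79 cytosolic ribosomal protein genes lay higher, with a median of 0.22 on the log2 scale, but none passed and 1, Rpl4 (log2 difference 0.22), had an unadjusted p under 0.05. The summed level of the list ran from 340016 to 697616 under vehicle and from 423664 to 656605 under rapamycin, so the groups overlapped. These genes move together within a library, and many share reads with near-identical pseudogenes. In knockout hearts the median ran from 0.12 without knockout vehicle library 2 to 0.37 without knockout vehicle library 5. In control hearts the median was -0.24. Control vehicle libraries 1 and 3 had lower long-minus-short transcript scores (-1.08 and -1.18) than any knockout library, and their part in that control median was not tested. Of 49 initiation and elongation factors, 7 were higher and none lower at an unadjusted p under 0.05, with a median of 0.07. Over all genes, 2.3% were higher and 3.42% lower at that p. Eef2, the translocating elongation factor, was at 56104 ± 8869.5 and 76724 ± 12869 (log2 difference 0.45, adjusted p = 0.290), Eef1a1, which delivers aminoacyl-tRNA, at 37252 ± 11652 and 54449 ± 11862 (log2 difference 0.57), and Eif3b, an eIF3 subunit, at 3223 ± 166 and 3958 ± 300 without overlap (log2 difference 0.29). Myc had a log2 difference of 0.50 (SE 0.32).

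Of 33 proteasome subunits, 4 were lower and 2 higher at an unadjusted p under 0.05, and the median was 0.01. Over all genes, 3.42% were lower and 2.3% higher at that p. Psmc6 and Psmd14, an ATPase and the deubiquitinase of the cap, had log2 differences of -0.30 and -0.41 without overlap.

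Of 75 mitochondrial ribosomal protein genes 55 lay lower, as did 7241 of the 13548 genes tested. Their median was -0.10, and 8 were lower and none higher at an unadjusted p under 0.05. The median was -0.03 without knockout vehicle library 5 and -0.16 without knockout vehicle library 2, and in control hearts it was -0.29. Oxidative phosphorylation subunits (78 genes) lay at a median of 0.03, and none had an unadjusted p under 0.05. That median ran from -0.06 without knockout vehicle library 2 to 0.16 without knockout vehicle library 5, and in control hearts it was -0.32. The part of control vehicle libraries 1 and 3, with their low transcript length scores, in these control medians was not tested. Another 5 mitochondrial lists were drawn up after genes of this kind had been seen among those called with the transcript-length covariate below, so they are a description and support nothing. Of 14 mitochondrial translation factors 13 lay lower (median -0.26), of 17 mitochondrial aminoacyl-tRNA synthetases 16 (median -0.15), and of 29 genes for mitochondrial DNA and RNA 25 (median -0.14).

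In the first of these lists Mtif3, an initiation factor, was at 569 ± 63.9 and 423 ± 28.8 (log2 difference -0.42, adjusted p = 0.219). Of the last, Mterfd3, of the mitochondrial termination factor family, was at 534 ± 88.7 and 365 ± 47.3 (log2 difference -0.54) and Ssbp1, the single-stranded DNA binding protein, at 310.3 ± 18.5 and 247 ± 8.2 (log2 difference -0.33), each without overlap. The 29 protein import genes had a median of -0.05, and the 17 mitochondrial chaperones and proteases one of -0.14, with Hspe1, the cochaperonin HSP10, at 2561 ± 398 and 1912 ± 137 without overlap (log2 difference -0.41). Over all 5 lists no gene passed the adjusted threshold. The shares at an unadjusted p under 0.05 compare with 3.42% of all genes lower.

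**Figure D3:**
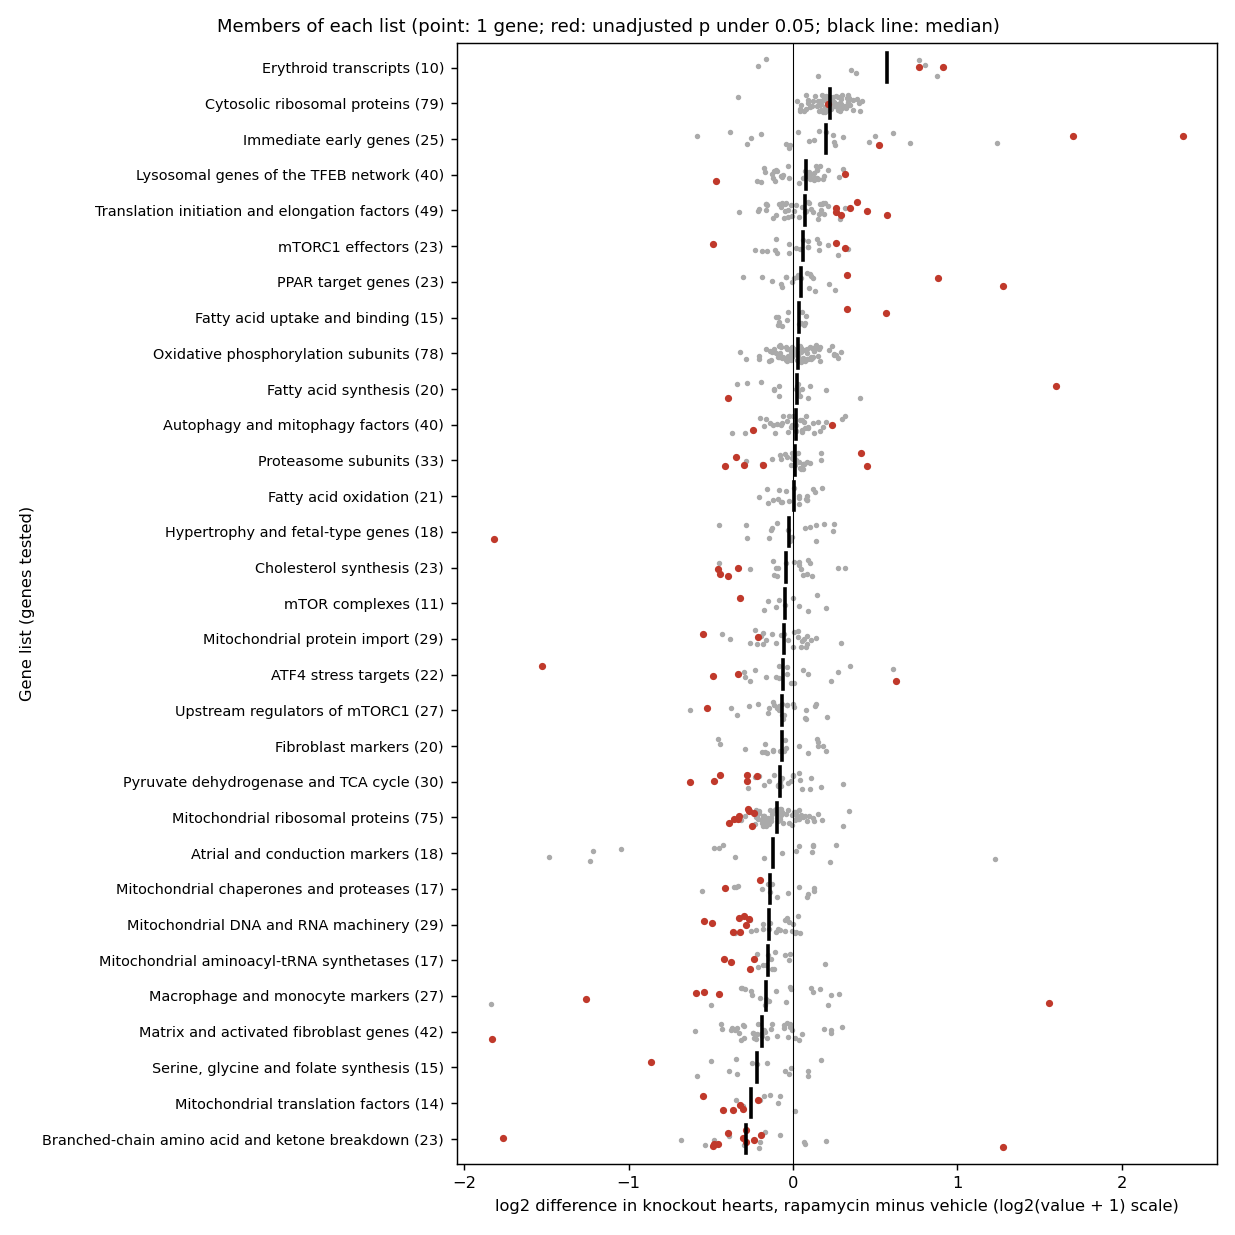
Log2 difference in knockout hearts, rapamycin minus vehicle, on the log2(value + 1) scale (x axis) for every tested member of 31 lists (y axis, number of genes tested in brackets); grey and red points are genes above and under an unadjusted p of 0.05, and the black line is the list's median. Medians run from -0.29 for branched-chain amino acid and ketone breakdown to 0.57 for erythroid transcripts, most lists straddle 0, and the 5 mitochondrial lists other than ribosomal proteins and oxidative phosphorylation were drawn up after calls had been seen.

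Genes of hypertrophy, matrix and other cell types varied widely between the animals of a group. Of 18 hypertrophy and fetal-type genes the median was -0.02. Acta1, skeletal actin, was at 11744, 11035, 4994, 1433 and 10633 under vehicle and at 1539.9, 594, 1677, 2290.4 and 5076 under rapamycin (log2 difference -1.82, SE 0.65, adjusted p = 0.585). As with Bdh1, Mthfd2 and Gdf15, vehicle library 4 had the lowest vehicle value. For Acta1, pool 4 went the other way (1.25, against -4.30, -2.84 and -2.12 in pools 1 to 3). Myh7, the slow myosin, had a log2 difference of -0.03 (SE 0.29), Myh6 one of -0.00 (SE 0.33), Nppb one of -0.10 (SE 0.74) and Nppa one of -0.45 (SE 0.68). Nppa is also an atrial marker, and the part of atrial tissue in these values was not tested. Vehicle library 4, with the highest Nppa at 38847, also had the highest atrial sum, but that sum includes Nppa itself.

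The 42 matrix and activated fibroblast genes lay lower in 35 cases, with a median of -0.19, but 1, Spp1, had an unadjusted p under 0.05. The median was -0.41 without knockout vehicle library 3 and -0.03 without knockout vehicle library 5. Spp1, osteopontin, was at 86.7 ± 98.0 and 17.2 ± 10.7 (log2 difference -1.83), with 1 vehicle library at 254. Postn, Cilp, Col8a1, Itgbl1 and Myoc had log2 differences of -0.04, -0.01, -0.38, -0.39 and -0.34. The 20 fibroblast markers had a median of -0.07, which was 0.09 without knockout vehicle library 5, and their summed level ran from 102842 to 180807 under vehicle and from 108508 to 179350 under rapamycin. Of 27 macrophage and monocyte markers 20 lay lower (median -0.16, and -0.03 without knockout vehicle library 4), with 4 lower and 1 higher at an unadjusted p under 0.05. Over all genes, 3.42% were lower and 2.3% higher at that p. Mrc1, the mannose receptor of resident macrophages, was at 779 ± 122 and 561 ± 211 (log2 difference -0.54), while Retnla lay higher. The summed macrophage level was 16952 to 28023 under vehicle and 14569 to 21707 under rapamycin, no listed marker being at 0, and its part in the Retnla difference was not tested.

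Of 25 immediate early genes 17 lay higher (median 0.20, and 0.02 without knockout rapamycin library 5). Nr4a1, the relative of Nr4a3, was at 676 ± 329 and 2562 ± 1603 (log2 difference 1.71, SE 0.80), and Klf2, a flow-responsive factor of endothelium, at 1055 ± 192 and 1514 ± 215 (log2 difference 0.52). Of 10 erythroid transcripts 8 lay higher (median 0.57), and the median was 0.29 without rapamycin library 4, which held 45407 of Beta-s against 13180.4 to 17348 in the other 4. Reads of near-identical haemoglobin copies cannot be assigned with certainty.

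The response was set beside that of control hearts, with which it shares no library. In control hearts rapamycin gave no called gene (0%), a smallest adjusted p of 0.225, and 2024 genes at an unadjusted p under 0.05, a share of 14.9%. The difference between the responses gave no called gene either (0%), a smallest adjusted p of 0.523, and 1124 genes at an unadjusted p under 0.05, a share of 8.3%. A response particular to hearts without Acsl1 was thus not detected for any single gene. Across the 13548 genes the 2 responses had a Pearson r of -0.05 and a Spearman rho of -0.10; genes are not independent replicates. With the transcript-length covariate described below these were 0.11 and 0.16, so the sign of the relation depended on that term. Of the 774 genes at an unadjusted p under 0.05 in knockout hearts, 488 (63.0%) had the same sign in control hearts, against 45.2% of all genes. Control vehicle libraries 1 and 3 stood apart in transcript length balance, and they enter the control response but not the knockout one. Without both, 482 genes had an unadjusted p under 0.05 in limma for the difference between the responses, against 1124 with all libraries. Leaving out 1 library at a time, that count ran from 571 (without knockout vehicle library 2) to 2402 (without control vehicle library 5).

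The control differences of 19 leading genes ranged from -0.56 for Abat to 0.96 for Retnla. For Bdh1 and Retnla the control differences were -1.41 and 0.96, of the sign seen in knockout hearts. For Timm44, Mrps9, Fgfr1op, Dmpk, Fkbp10, Nr4a3 and E130201H02Rik they lay between -0.07 and 0.07. The difference between the responses was -0.51 (SE 0.15) for Timm44, 2.36 (SE 0.76) for Nr4a3 and 0.70 (SE 0.24) for Fkbp10. Each had an adjusted p of 0.523, and since the genes were ranked on the knockout response these differences are no independent test. Mthfd2, a fixed gene, had a control difference of 0.59 and differed by -1.45 (SE 0.38, adjusted p = 0.523). It was fixed with earlier results of these data known and was called between knockout and control hearts under vehicle. The difference between the responses uses those same libraries, so this is no independent test either.

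**Figure D4:**
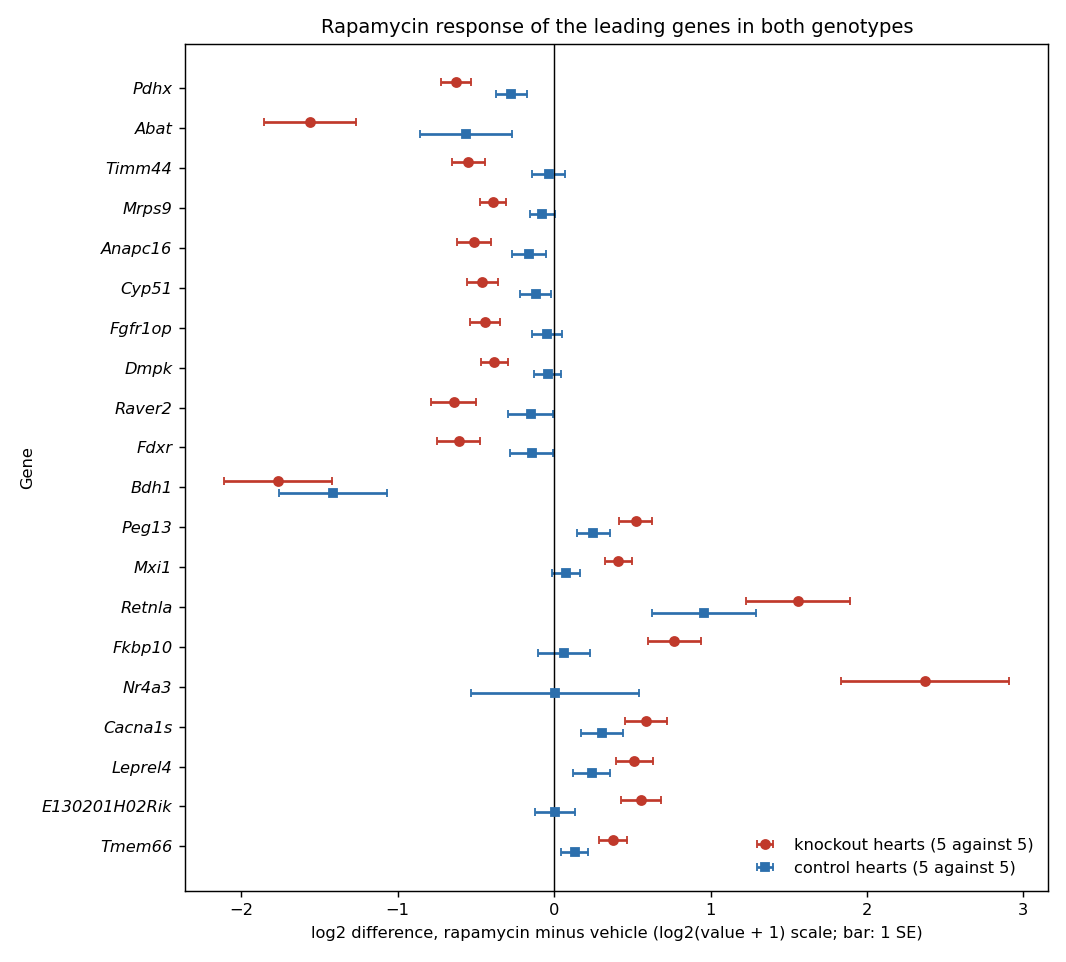
Log2 difference, rapamycin minus vehicle, on the log2(value + 1) scale (x axis) for 19 of the 20 leading genes and Bdh1 (y axis), in knockout hearts (red circles) and control hearts (blue squares); bars are 1 standard error, with 5 against 5 libraries each. Bdh1 lies at -1.76 and -1.41, Nr4a3 at 2.37 and 0.01; the genes were ranked on the knockout values, which therefore lie far from 0.

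Between knockout and control hearts under vehicle, 33 genes were called, a share of 0.244%. That comparison uses the same knockout vehicle libraries, but with the opposite sign. A vehicle library high by chance raises that difference and lowers the rapamycin one, which by itself looks like a move towards control. The levels are therefore given side by side only. Mthfd2 was at 40.8 ± 8.02 in control vehicle, 143 ± 50.7 in knockout vehicle, 76.6 ± 20.9 in knockout rapamycin and 63.9 ± 21.8 in control rapamycin hearts. Pla2g4a, which releases arachidonic acid from membranes, was at 54.2, 128, 88.7 and 70.5 in the same order, and Vcam1, an adhesion molecule of activated endothelium, at 419.6, 770.3, 598 and 533. Egflam, the dystroglycan ligand pikachurin, was at 641, 391, 506 and 635. Itgbl1 was at 107, 359.6, 270.5 and 159. For Gcnt1, Gpm6b and Scn7a, other genes of the 33, the knockout rapamycin mean lay further from control vehicle than the knockout vehicle mean did. Gcnt1, a glycosyltransferase, was at 72.8, 156, 166 and 98.2 in the same order, Gpm6b, a neuronal membrane glycoprotein, at 470.5, 832, 899.5 and 577, and Scn7a, a sodium channel, at 450.3, 763, 870.2 and 588. These 3 were chosen after their values were seen. Of the first 5, none passed the adjusted threshold for rapamycin in knockout hearts without weights or covariate (adjusted p = 0.413 for Mthfd2 and 0.321 for Egflam). Egflam, whose knockout groups did not overlap, passed in the limma fits below with array weights (adjusted p = 0.0425) and with the transcript-length covariate (adjusted p = 0.0457).

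**Figure D5:**
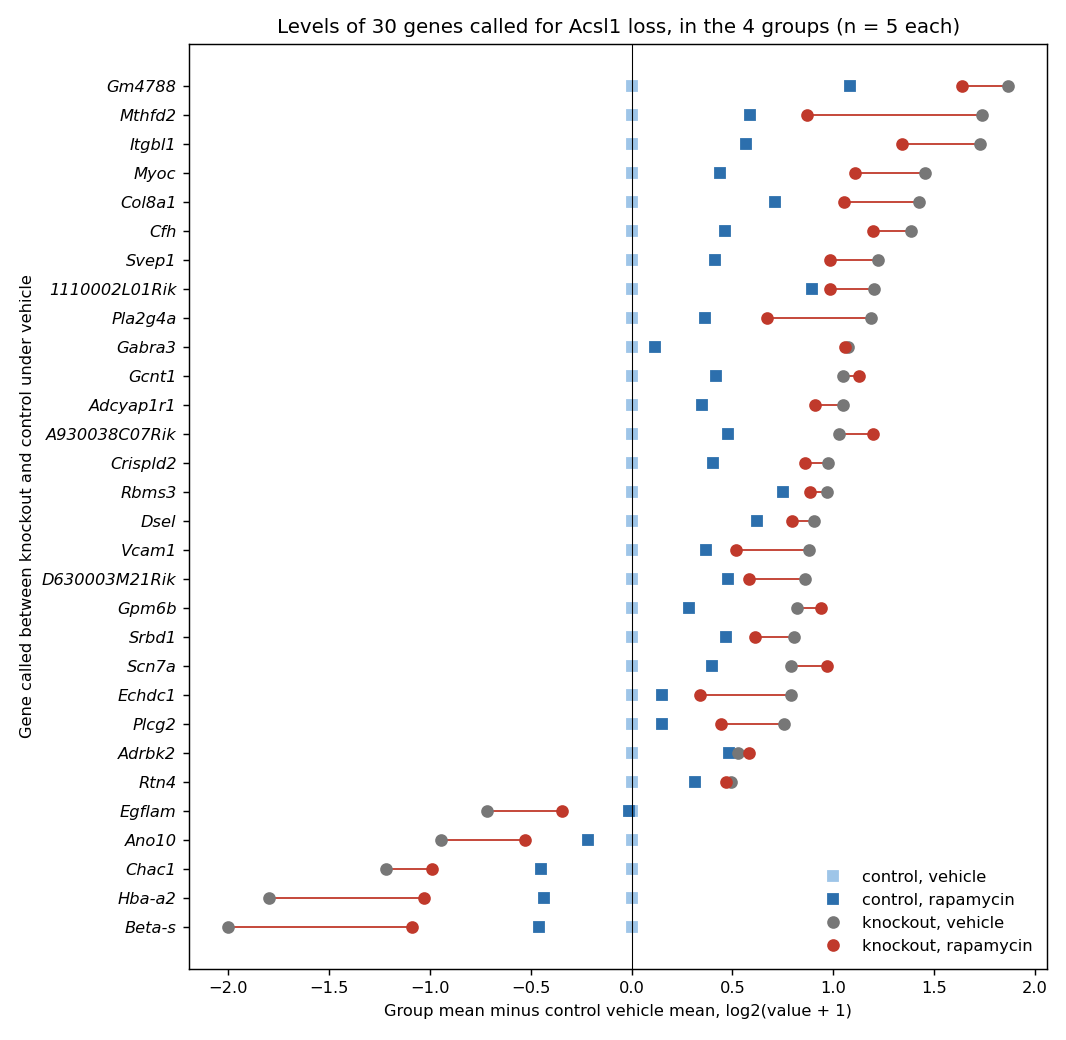
Group mean minus control vehicle mean, in log2(value + 1) units (x axis), for the 30 genes other than Acsl1, Esr1 and A1cf that were called between knockout and control hearts under vehicle (y axis); squares are control and circles knockout groups of 5 libraries, and the red line joins the knockout groups. The knockout vehicle group lies far from 0 because it chose the genes, and knockout rapamycin lies between it and control vehicle for genes such as Mthfd2 (143 to 76.6) and Egflam (391 to 506) and further from it for others such as Scn7a (763 to 870.2).

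The number of genes that passed differed between fits. With array weights, which give libraries that deviate less influence, and a robust prior, 58 genes passed, 31 lower (0.229%) and 27 higher (0.199%). All 58 were among the 60 that passed with array weights alone, while the robust prior alone gave 0 in limma, with 770 at an unadjusted p under 0.05. These separate fits were added after the data were seen. With the long-minus-short transcript score of each library as a covariate, 233 passed, 120 lower (0.886%) and 113 higher (0.834%). That covariate was added after the count of 1 had been seen, and it is computed from the same expression values. No other fit without that covariate gave more than 2 genes, and none of these replaces the count of 1. The fits with 58 and 233 genes shared 54. Of the 20 leading genes the first called 18, all but Fgfr1op and Raver2, and the second all 20. Bdh1 (adjusted p = 0.0218 and 0.0122) and Hibch passed in both. Eef2 and Egflam passed in both as well, and Cd36, Scd4 and Pdhb with the covariate only. Neither fit called a gene in control hearts or for the difference between the responses. Of the 233 genes, 201 (86.3%) had the same sign in control hearts when that response was fitted with the covariate too, against 56.2% of all genes, and 141 when it was fitted without. The slope of the covariate is shared by both responses in that fit.

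With the covariate, the calls in the lists compare with 0.886% of all genes called lower and 0.834% called higher. They were 7 lower and 1 higher of 23 genes for branched-chain amino acid and ketone breakdown, and 3 lower of 30 for pyruvate dehydrogenase and citric acid cycle genes. They were 7 lower and 1 higher of 75 mitochondrial ribosomal protein genes, 7 higher of 79 cytosolic ones, and 6 higher of 49 initiation and elongation factors. No gene of the mTOR complexes, autophagy, fatty acid oxidation, serine synthesis, matrix or fibroblast lists was called in either fit. With the covariate, 1 of 23 mTORC1 effectors, 1 of 22 ATF4 stress targets and 2 of 20 amino acid transporters were called higher. Of 33 proteasome subunits, that fit called 4 lower and 2 higher. The smallest p of that fit belonged to Aifm1, the mitochondrial apoptosis-inducing factor, chosen here after its value was seen, with a log2 difference of -0.55 (adjusted p = 0.000415), against -0.60 (adjusted p = 0.639) in the fit without the covariate.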

How the data were processed

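Poly(A) RNA of heart ventricle was sequenced in 20 libraries, 5 per group, in 4 pools. Per the submitters' processing notes, the build was mm9 and the tools RSEM, SAMtools and Picard 1.64. Which aligner ran is not given in the sources used. As deposited by the authors, the table holds a normalized signal per gene, scaled by the authors to an upper quartile of about 1000; it holds no counts. Low values implied the depth quoted but did not come out as whole reads often enough to be used as such.

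Values were taken as log2(value + 1), which understates changes of low genes. Genes with a value of at least 10 in at least 5 libraries were fitted with limma 3.58.1 (R 4.3.3), all 20 libraries, 1 mean per group and an intensity trend, with Benjamini-Hochberg adjustment and a threshold of 0.05; the code was tested on simulated data. Replicate numbers were not used as pairs. Alternatives were other pseudocounts, filters, scalings, terms and weights, and leaving out each library. The length score is the mean of genes with transcripts above 5000 bases minus that of genes below 1500 bases, from GENCODE lengths.

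Genes named are Acsl1, Esr1 and A1cf, the leading genes, the 3 members with the smallest p of each list described, and 38 fixed genes; others are said to be chosen afterwards. A gene that the rule names is not reported here. Comparisons, members and lists were chosen with earlier results of these data known.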

Additional observations from a re-analysis of the deposited data

Results flagged for a closer look

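Among 278 groups of 5 libraries, 1 library lay far from the others in 18; chance gives about 1 in 20. In knockout vehicle, library 5 stood apart for Dcn (31476), Gsn (86105.5), Klf2 (1396) and Psma4 (2048), library 3 for Fkbp5 (4312, against 521 to 753 in the others) and Srebf2 (602), and library 4 for Trib3 (89.3). In knockout rapamycin, library 4 stood apart for the erythroid transcripts Beta-s (45407), Hba-a2 (49830) and Alas2 (1605, against 395 to 547), for Pmvk (148) and for Ssbp1 (261). Library 5 stood apart for Ctsk (153), Dmpk (8967), Rheb (1908) and Stk39 (3048), and library 2 for Becn1 (1175) and Dnaja3 (4581). Dmpk, Pmvk and Ssbp1 are described above as genes without overlap.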

How the results depend on the processing

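The count of called genes was 1, Pdhx, and stayed 1 with pseudocounts of 0.5 and 10, without a filter and with a mean of at least 100. It was 0 after quantile normalization (smallest adjusted p 0.0519) and median-ratio rescaling, with a pool term, with the atrial covariate, in a fit of only the groups compared, without control vehicle libraries 1 and 3, and without both knockout vehicle libraries 3 and 5. With the replicate number as a block it was also 0. The deviations of same-numbered libraries correlated at 0.11, 0.27, 0.24, -0.20 and -0.22, and 2 of 5 vehicle libraries correlated best with their own number. So few values cannot exclude a pairing by number. The count was 58 with robust empirical Bayes and array weights (31 lower, 27 higher) and 60 with array weights alone (31 lower, 29 higher). It was 0 with the robust prior alone, and 233 with the length-score covariate (120 lower, 113 higher). Leaving out each library gave 0 to 2: 2 without knockout vehicle 4, 1 without knockout vehicle 5 or knockout rapamycin 5, and 0 otherwise. Unadjusted p-values under 0.05 numbered 713 to 1948 over the alternatives that kept every library and the filter. The cause of these shifts was not tested.

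With the length-score covariate the count was 139 with a pool term and, leaving out each library, 81 (without knockout vehicle 2) to 407 (without knockout rapamycin 5); it was 86 without knockout rapamycin 4. All 233 kept their sign in each of these fits. The count for the difference between the responses was 0 in every fit that held control hearts. For control hearts it was 0 in those fits without the covariate, and with it 0 in all but 1, which gave 8 (without control vehicle 4).

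Of the 66 list medians, 37 changed sign in at least 1 fit, many of them near 0, and another 23 moved by over 1.5 times. The 6 others included branched-chain amino acid and ketone breakdown, pyruvate dehydrogenase and the citric acid cycle, and cytosolic aminoacyl-tRNA synthetases. The rest of these 6 were mitochondrial aminoacyl-tRNA synthetases, mitochondrial translation factors, and mitochondrial DNA and RNA. Those last lists were drawn up after calls had been seen, so their stability supports nothing. Interferon-induced genes went from -0.19 to 0.07 without knockout vehicle 4, and cell cycle genes from -0.22 to -0.03 with a mean of at least 100. Medians that moved by more than the SD between libraries were those of the mTORC1 effectors (0.0074 with a pool term, -0.0012 without knockout rapamycin 5), autophagy (0.02; -0.0094 without knockout rapamycin 5 to 0.034 without knockout rapamycin 1), serine and folate synthesis (-0.10 with a mean of at least 100) and cardiac transcription factors (0.012 without both knockout vehicle libraries 3 and 5, against 0.13). Pdhx kept its sign in every fit.

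With 5 libraries a group and a median standard error of 0.19, small changes were not detectable. Depth limits low genes such as A1cf and Spp1. Separate animals are stated by the design text only, and a library's tissue piece, RNA quality and cell mix were not measured apart from the transcripts themselves.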

Other observations

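Fkbp5, which encodes an immunophilin induced by glucocorticoids, was at 521, 656, 4312, 659.7 and 753 in the knockout vehicle libraries and at 609, 496, 2278, 789 and 850.0 in the rapamycin libraries (log2 difference -0.13, SE 0.69). Library 3 of each group was the high one. Both were in pool 3, which also held vehicle library 5, at 753. Ddit4, an mTORC1 inhibitor gene that glucocorticoids also induce, was at 925, 935, 3509, 1024 and 1704 and at 1344, 945, 1555, 1356 and 1470.5, so the same libraries were highest. Of 31 interferon-induced genes 26 lay lower under rapamycin (median -0.19, 1 at an unadjusted p under 0.05). That median was 0.07 without knockout vehicle library 4 and -0.36 without knockout rapamycin library 3. Of 35 cell cycle genes 26 lay lower (median -0.22, 2 at an unadjusted p under 0.05), with a median of -0.06 without knockout rapamycin library 1 and -0.03 over the genes with a mean of at least 100. Ribosome biogenesis (40 genes) and the unfolded protein response (30 genes) had no gene under that p, with medians of -0.01 and 0.05.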
